A study of Mus musculus with 2 samples.

Results

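The genes described here are 10 markers of mesenchymal cell state: the transcription factors Twist1, Twist2, Snai1, Snai2, Zeb1, Zeb2 and Prrx1, the adhesion protein gene Cdh2, the filament gene Vim and the matrix gene Fn1. They were taken by symbol from the 25509 genes of the count table, and all 10 were found and passed the filter of at least 10 counts in 1 library or both, as did 12941 genes in all. The data are 2 poly(A) RNA-seq libraries of mouse soft-tissue sarcoma cells of strain C57BL/6, 1 transduced with a hairpin (short hairpin RNA) against the backsplice junction of the circular RNA circCsnk1g3 (shcircCsnk1g3) and 1 with a control hairpin (shCTR). The cells of both libraries lacked p53 and overexpressed Ccne1, the cyclin E1 gene, from a retroviral vector. They had been derived from bone mesenchymal stem cells, grown as subcutaneous tumors, seeded in the lung of further mice and recovered from lung foci before the hairpins were introduced. The control is called shSCR in the study's text. Neither condition was replicated, so no p-value is given. Each difference below therefore compares a pair of libraries, and the effect of the hairpin cannot be told apart from a difference between the cultures.

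Mesenchymal cells hold their state through transcription factors that repress epithelial genes. The Snail proteins (Snai1, Snai2) and the Zeb proteins (Zeb1, Zeb2) are zinc finger repressors that bind E-box motifs in the promoters of genes such as Cdh1, which encodes E-cadherin. The Twist proteins are basic helix-loop-helix (bHLH) factors of mesoderm and its derivatives, and Prrx1 is a homeobox factor of limb and craniofacial mesenchyme. N-cadherin (Cdh2), vimentin (Vim) and fibronectin (Fn1) are the structural proteins by which such cells are usually recognised, and sarcomas, being tumors of mesenchymal lineage, normally express them.

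The shcircCsnk1g3 library held 38792143 counts and the shCTR library 42709996. The range given in parentheses after a log2 fold change is its 95% exact interval, computed from the gene's counts and covering counting error alone. The linear transcript of the targeted gene Csnk1g3 had 2159 counts in shcircCsnk1g3 and 2411 in shCTR, a log2 fold change of -0.05 (-0.14 to 0.03), and the circular RNA, which has no poly(A) tail, was not measured. Of 27 other mesenchymal and stromal markers, 24 passed the filter. The remaining ones were near 0, with 1 count of Thy1 in shCTR and 0 in shcircCsnk1g3, 0 and 1 of Fap, and 0 and 9 of Lum. Pdgfra, which encodes a receptor used to sort the parental stem cells, had 264 TMM-scaled CPM (counts relative to library depth, or CPM, with depths adjusted by a trimmed mean of M values) in shcircCsnk1g3 and 327 in shCTR. Most markers of other cell types were at or near 0. None of 14 leukocyte markers reached 10 counts, and the list summed to 14 counts in shcircCsnk1g3 and 13 in shCTR, with 1 and 0 counts of the pan-leukocyte gene Ptprc. The 10 endothelial markers summed to 106 counts in each library, with 7 counts of Pecam1 in each and most of the sum from Egfl7, which had 68 counts in shCTR and 85 in shcircCsnk1g3. The 10 lung epithelial markers summed to 27 counts in shcircCsnk1g3 and 26 in shCTR, with Sftpc at 0 in both.

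All 10 genes were expressed in the sarcoma cells, and none differed by 1.5-fold between the libraries. Among all genes tested, 5.39% were at least 1.5-fold higher in shcircCsnk1g3 and 6.31% at least 1.5-fold lower, and against these shares 0 of 10 does not set the genes apart. At 2-fold, where no member stood either, the shares were 2.13% and 2.55%. The log2 fold changes ran from -0.30 (Fn1) to 0.38 (Snai2) with a median of -0.01, beside a median of 0.00 over all genes tested. The intervals of Snai2 and Zeb2 lay above 0 and those of Fn1, Vim, Snai1 and Prrx1 below 0, whereas those of Twist1, Twist2, Zeb1 and Cdh2 included it. Intervals above 0 were found for 26.9% of all genes tested and intervals below 0 for 28.2%, so that 2 and 4 of 10 are near the background. Scaling by total counts in place of TMM moved these numbers to 4 above and 4 below, and the shares over all genes tested to 31.8% and 23.7%.

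**Figure D1:**
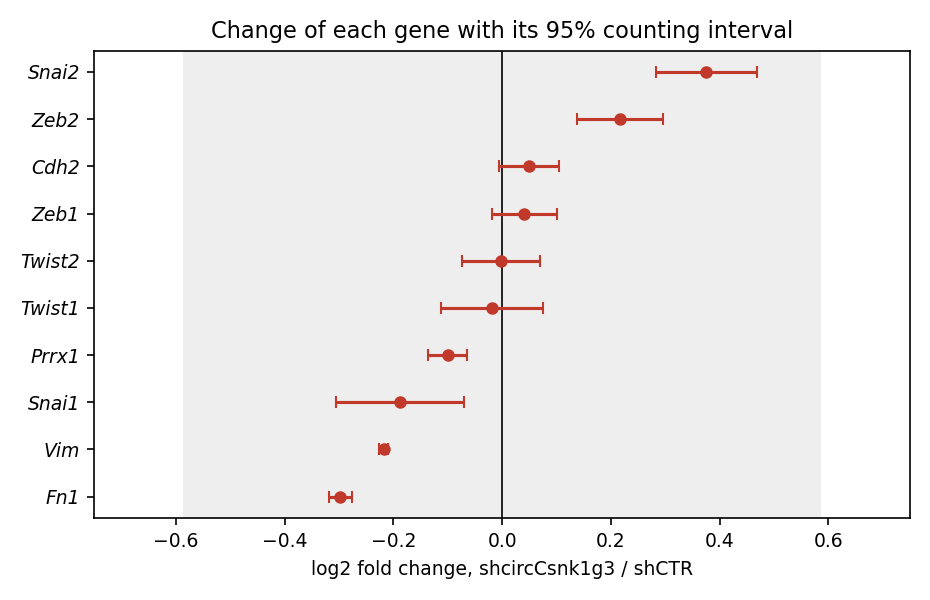
Log2 fold change of each of the 10 genes (shcircCsnk1g3 over shCTR, x axis), with bars for the 95% exact counting interval and the range within 1.5-fold shaded grey. All 10 points lie inside the shaded range, from Fn1 at -0.30 to Snai2 at 0.38.

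Levels of different genes were compared per kilobase of merged exons within each library, on the TPM scale (transcript abundance scaled to a fixed sum per library). The order in shCTR was Vim (4443 TPM), Fn1 (266), Twist1 (89.4), Prrx1 (88.9), Twist2 (76.4), Snai2 (64.7), Snai1 (60.6), Cdh2 (48.7), Zeb1 (32.8) and Zeb2 (9.31). In shcircCsnk1g3 it was Vim (3925 TPM), Fn1 (222), Twist1 (90.7), Snai2 (86.2), Prrx1 (85.2), Twist2 (78.4), Snai1 (54.7), Cdh2 (51.8), Zeb1 (34.7) and Zeb2 (11.1). The neighbours Twist1 and Prrx1, and Snai2 and Snai1, had overlapping counting intervals in shCTR, as did Twist1, Snai2 and Prrx1, and Snai1 and Cdh2, in shcircCsnk1g3. Per kilobase of merged exons, Snai2 was thus the only gene that passed another one outside such ties, going from below Twist2 (61.7 to 67.8 against 73.8 to 79.1 TPM) to above it (82.6 to 90.0 against 75.6 to 81.2). Vim ranked 18 among the genes tested in shCTR and 23 in shcircCsnk1g3, and Zeb2, the lowest of the 10, ranked 8456 and 8115. The levels and the order of the middle genes depend on the length used. With the longest transcript in place of merged exons, Zeb2 had 15.6 TPM in shCTR and 18.6 in shcircCsnk1g3. Prrx1 then stood above Twist1 in both libraries. On that length Snai2 stayed below Twist2, at 49.4 against 73.5 TPM in shCTR and 65.9 against 75.4 in shcircCsnk1g3.

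**Figure D2:**
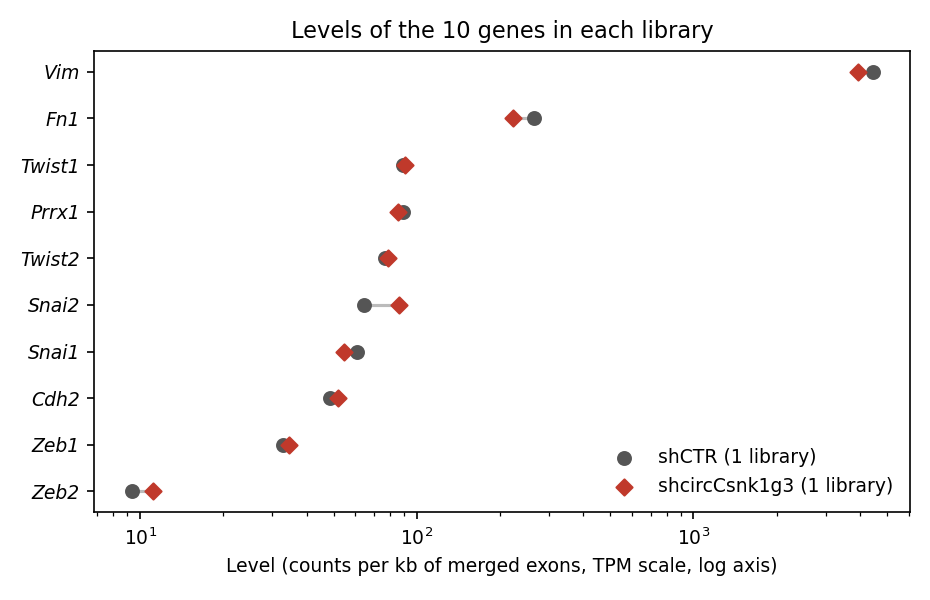
Level of each gene in the shCTR library (grey circles) and the shcircCsnk1g3 library (red diamonds), on the TPM scale with a log axis. Vim stands far above the rest at 4443 and 3925 TPM, Zeb2 is lowest at 9.31 and 11.1, and Snai2 shows the widest gap among the transcription factors.

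The paralogs of the Snail pair lay on opposite sides, Snai2 higher and Snai1 lower in shcircCsnk1g3. Snai2, which encodes Slug, had 1751 counts in shCTR and 2109 in shcircCsnk1g3 (41.4 and 53.8 TMM-scaled CPM), a log2 fold change of 0.38 (0.28 to 0.47), or 29.7% more. Snai1, which encodes Snail, had 1317 counts in shCTR and 1073 in shcircCsnk1g3 (31.2 and 27.4 TMM-scaled CPM), a log2 fold change of -0.19 (-0.31 to -0.07). Of the genes with at least 200 summed counts, 12.9% differed by as much as Snai2 in either direction, and 36.9% by as much as Snai1. The share of Snai1 in the counts of the pair is a ratio within each library and needs no scaling between them. It was 42.9% in shCTR (95% exact interval 41.2 to 44.7%, of 3068 counts) and 33.7% in shcircCsnk1g3 (32.1 to 35.4%, of 3182 counts). The ratio of Snai1 to Snai2 was therefore lower in shcircCsnk1g3 by a log2 ratio of -0.56 (-0.71 to -0.41). The transcripts of the pair share no identical run longer than 23 bases in the GENCODE annotation.

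Snail proteins bind the E-box CACCTG, which reads CAGGTG when the opposite strand is searched, and 1 such motif was found in the promoter window of Snai1 itself. The sequence is shown because Snai1 was the only one of the 6 members with a window in the RefSeq table (Twist1, Twist2, Snai1, Zeb2, Prrx1 and Vim) to hold it, in 1 of 9 windows. Among all 32851 windows of the same length, 20.2% held the motif on either strand. The window covers 250 bases before and 50 after the transcription start (GRCm38.p6, chr2:167537945-167538244, plus strand), with the motif in capitals starting 126 bases before the start.

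Snai1: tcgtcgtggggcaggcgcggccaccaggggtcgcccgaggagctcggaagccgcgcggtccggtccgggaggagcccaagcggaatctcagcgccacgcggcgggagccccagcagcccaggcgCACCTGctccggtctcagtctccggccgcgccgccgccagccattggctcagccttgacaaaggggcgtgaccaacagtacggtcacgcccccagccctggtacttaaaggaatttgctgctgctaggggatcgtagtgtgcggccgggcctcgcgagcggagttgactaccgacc

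Twist1 and Twist2 encode closely related bHLH proteins. Twist1 had 1950 counts in shCTR and 1787 in shcircCsnk1g3, which is 46.2 and 45.6 TMM-scaled CPM. Twist2 had 3251 and 3012 counts, or 76.9 and 76.8 TMM-scaled CPM. Neither moved beyond its counting error, with log2 fold changes of -0.02 (-0.11 to 0.07) for Twist1 and -0.00 (-0.07 to 0.07) for Twist2. The division of counts between them was also alike, with Twist1 holding 37.5% of the pair in shCTR (36.2 to 38.8%) and 37.2% in shcircCsnk1g3 (35.9 to 38.6%). The log2 ratio of these ratios was -0.02, and its interval of -0.13 to 0.10 bounds the shift that these counts allow. Twist2 lies on chromosome 1 (91801461 to 91848028) and Twist1 on chromosome 12 (33957671 to 33959829, GRCm38), and an annotated gene on the opposite strand overlaps 1477 exonic bases of Twist2. The sources used here do not say whether reads were counted by strand.

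Twist proteins act as dimers with the E proteins Tcf3, Tcf4 and Tcf12, and the Id proteins hold E proteins away from DNA. Of these 7 genes, 6 were higher in shcircCsnk1g3, beside 50.4% of all genes tested, and the median log2 fold change was 0.19. An interval above 0 was found for 4 (57.1%, beside 26.9% of all genes) and one below 0 for none. Id3 had 3645 counts in shCTR and 5372 in shcircCsnk1g3, a log2 fold change of 0.67 (0.61 to 0.73), and was the only one of the 7 past 1.5-fold. Id4 was also higher, with 221 and 299 counts and a log2 fold change of 0.54 (0.29 to 0.80). Id1 gave -0.08 (-0.19 to 0.03) and Tcf3 gave 0.04 (-0.02 to 0.09), neither beyond counting error. Id3 and Id4 thus differed more between the libraries than Twist1 and Twist2 did.

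In the Zeb pair, Zeb1 had 4511 counts in shCTR and 4308 in shcircCsnk1g3, or 107 and 110 TMM-scaled CPM, a log2 fold change of 0.04 (-0.02 to 0.10). Zeb2 had 2488 and 2684 counts, or 58.9 and 68.4 TMM-scaled CPM, with a log2 fold change of 0.22 (0.14 to 0.30). The counts of the pair summed to 6999 and 6992, of which Zeb1 held 64.5% in shCTR (63.3 to 65.6%) and 61.6% in shcircCsnk1g3 (60.5 to 62.8%). The ratio of Zeb1 to Zeb2 was lower in shcircCsnk1g3 by a log2 ratio of -0.18 (-0.28 to -0.08), a smaller shift than that of the Snail pair, whose interval does not overlap it. The longest run shared by their annotated transcripts is 35 bases. Annotated genes on the opposite strand overlap 653 exonic bases of Zeb2 at most and 198 of Zeb1.

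**Figure D3:**
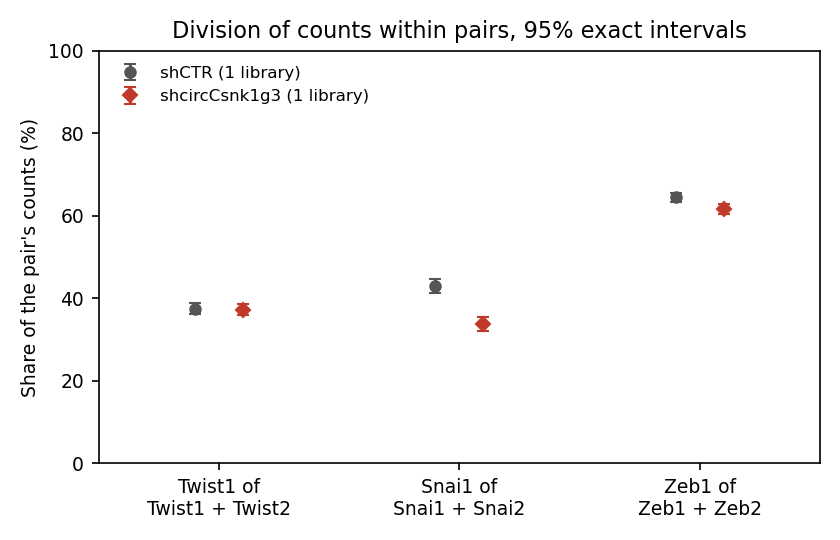
Share of the counts of each pair that belongs to Twist1, Snai1 or Zeb1 (percent, y axis) in the shCTR library (grey) and the shcircCsnk1g3 library (red), with 95% exact intervals for counting error. The share of Snai1 is 42.9% in shCTR and 33.7% in shcircCsnk1g3, while that of Twist1 differs by less than its interval.

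Snail and Zeb proteins recruit corepressors such as Ctbp1, Hdac1 and Kdm1a, and their amounts are also set by kinases and ubiquitin ligases that mark Snail proteins for degradation. All 18 genes of this list were tested, of which 11 were higher and 7 lower, with a median log2 fold change of 0.06 and none past 1.5-fold. The highest was Fbxo11, a ubiquitin ligase subunit, with 3224 counts in shCTR and 3733 in shcircCsnk1g3 and a log2 fold change of 0.32 (0.25 to 0.39). Usp27x, a deubiquitinase, followed with 296 and 323 counts and 0.23 (0.00 to 0.47). The lowest were Fbxw7, another ligase subunit, at -0.45 (-0.64 to -0.28, 621 and 420 counts) and the kinase gene Pak1 at -0.31 (-0.40 to -0.22, 2367 and 1777 counts).

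Prrx1 had 13181 counts in shCTR and 11414 in shcircCsnk1g3, which is 312 and 291 TMM-scaled CPM and the highest CPM of the 7 transcription factors. Per kilobase its place depended on the length used, since it tied with Twist1 in shCTR on merged exons and stood above all the other factors in both libraries on the longest transcript. Its log2 fold change was -0.10 (-0.14 to -0.06), a difference of -6.70% that 61.1% of the genes with at least 200 summed counts matched or passed. Its paralog Prrx2, which is not one of the 10, had 2527 and 1887 counts and a log2 fold change of -0.31 (-0.40 to -0.23). Together the 7 transcription factors took 0.0666% of all counts in shCTR and 0.0680% in shcircCsnk1g3.

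Among the structural genes, Vim and Fn1 were lower in shcircCsnk1g3 and Cdh2 was not. Vim, which encodes the main intermediate filament of mesenchymal cells, had 282350 counts in shCTR and 225330 in shcircCsnk1g3 (6683 and 5746 TMM-scaled CPM), a log2 fold change of -0.22 (-0.23 to -0.21). Fn1, the gene of the matrix protein fibronectin, had 41577 and 31385 counts (984 and 800 TMM-scaled CPM), with a log2 fold change of -0.30 (-0.32 to -0.28). Their intervals are narrow because their counts are high, and 30.9% and 19.2% of the genes with at least 200 summed counts differed by as much. Cdh2 had 5268 and 5060 counts (125 and 129 TMM-scaled CPM), with a log2 fold change of 0.05 (-0.01 to 0.11). In bulk RNA, fewer cells of a type and less RNA per cell cannot be told apart.

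Other abundant genes were also lower in shcircCsnk1g3, a comparison made after the values of Vim and Fn1 were seen. At a mean of 500 CPM or more there were 273 genes, Vim and Fn1 among them. Of these 180 (65.9%) were lower and 93 higher (median log2 fold change -0.06), beside 49.6% of all genes tested that were lower. Under total counts 161 were lower and 112 higher (median -0.03). Intervals below 0 were found for 61.2% of the 273 genes and above 0 for 27.5%, beside 28.2% and 26.9% of all genes tested. Under total counts these shares were 52.7% and 37.4%, beside 23.7% and 31.8% of all genes tested. Of 15 housekeeping genes 12 (80.0%) were lower, with a median of -0.09, and 10 were lower when libraries were scaled by total counts. Under TMM an interval below 0 was found for 9 of the 15 (60.0%) and one above 0 for 1. Actb, the beta-actin gene, had 136164 counts in shCTR and 100735 in shcircCsnk1g3, a log2 fold change of -0.33 (-0.34 to -0.32), beyond that of Vim, while Gusb gave -0.37 (-0.50 to -0.24) and Polr2a 0.01 (-0.02 to 0.04). The part of this pattern in the values of Vim and Fn1 was not tested.

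**Figure D4:**
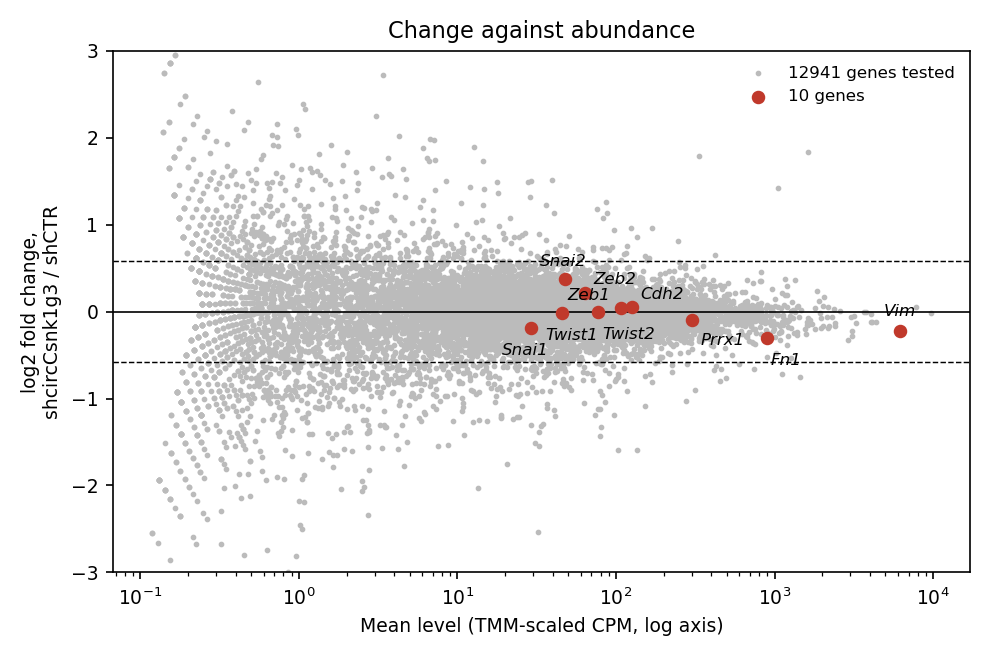
Log2 fold change of the 12941 genes tested (y axis, shown from -3 to 3, which leaves out 25 genes) against their mean TMM-scaled CPM (log x axis), with the 10 genes in red and dashed lines at 1.5-fold. The 10 lie inside the cloud at their level, and Vim and Fn1 are on its lower side among the abundant genes.

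Vimentin filaments are anchored by plectin and by actin-membrane linkers, and Vim shares its filament network with Nes, Synm and Des. The list of 13 filament and cytoskeletal genes used here also held the nuclear lamins Lmna and Lmnb1, the filament genes Gfap and Prph, and Ywhaz. Of the 13 genes 10 were lower and 3 higher (median log2 fold change -0.16), beside 49.6% of all genes tested that were lower. An interval below 0 was found for 8 (61.5%), beside 28.2% of all genes tested and 61.2% of the 273 genes of at least 500 CPM. Lmnb1, the lamin B1 gene, had 4072 counts in shCTR and 2502 in shcircCsnk1g3, a log2 fold change of -0.59 (-0.67 to -0.52), just past 1.5-fold and within it under total counts. Msn, which encodes the actin linker moesin, gave -0.33 (-0.35 to -0.31), with 50691 and 37484 counts. Also past 1.5-fold, and named after their values were seen, were the rare transcripts Prph (35 and 3 counts) and Synm (38 and 17) on the lower side and Des (6 and 14) on the higher side, where the interval of Des, with a lower bound of -0.14, included 0. At the other end Ywhaz gave 0.03 (0.01 to 0.05) and Rdx -0.02 (-0.07 to 0.02).

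Fibronectin is bound by integrins and syndecans and crosslinked into the matrix by transglutaminase. Of 14 tested genes in a wider list of its receptors, partners and crosslinkers, 10 were lower, beside 49.6% of all genes tested. The median log2 fold change of the list was -0.16. An interval below 0 was found for 9 (64.3%), beside 28.2% of all genes tested and 61.2% of the genes of at least 500 CPM. The syndecan gene Sdc1 gave -0.53 (-0.59 to -0.46), with 4869 counts in shCTR and 3134 in shcircCsnk1g3, and the fibulin gene Fbln2 -0.44 (-0.49 to -0.38), with 6843 and 4696. On the other side stood Itga8, an integrin chain that pairs with Itgb1, with 273 and 689 counts and a log2 fold change of 1.44 (1.24 to 1.65), the only one past 1.5-fold. Tgm2, the transglutaminase gene, had 1337 and 1538 counts and 0.31 (0.20 to 0.42). Of the fibronectin receptor chains, added after their values were seen, Itga5 gave 0.01 (-0.02 to 0.04), while Itgb1, its partner chain, gave -0.35 (-0.37 to -0.32) and Itgav -0.32 (-0.37 to -0.28).

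N-cadherin works through catenins, which tie it to actin. Of 11 tested genes of this list 7 were lower and 4 higher, beside 49.6% of all genes tested that were lower. Intervals lay below 0 for 5 (45.5%, beside 28.2%) and above 0 for 2 (18.2%, beside 26.9%). The median log2 fold change was -0.21. It was -0.12 with the gene set and depths of the deposited TMM-scaled table and with other count filters. Afdn, which encodes the actin linker afadin, had 8774 counts in shCTR and 3845 in shcircCsnk1g3, a log2 fold change of -1.08 (-1.14 to -1.03) and the only gene of this list past 2-fold. Vcl, the vinculin gene, had 21617 and 12636 counts and -0.67 (-0.70 to -0.64). These 2 genes were at least 1.5-fold lower, beside 6.31% of all genes tested, and no gene of the list was at least 1.5-fold higher. The catenin Ctnna1 gave 0.10 (0.06 to 0.13) and Jup, which encodes plakoglobin, 0.29 (0.07 to 0.53). The catenins Ctnnb1, at -0.27 (-0.29 to -0.25), and Ctnnd1, at -0.22 (-0.26 to -0.18), lay on the other side and were added after their values were seen. Afdn and Vcl thus differed more between the libraries than Cdh2 itself.

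The wider set of mesenchymal and stromal markers was divided. Of 24 tested genes 15 were lower and 9 higher in shcircCsnk1g3 (median log2 fold change -0.11), beside 49.6% of all genes tested that were lower. Intervals lay below 0 for 13 (54.2%, beside 28.2% of all genes tested) and above 0 for 8 (33.3%, beside 26.9%). Among the genes of at least 500 CPM these shares were 61.2% and 27.5%. Tagln, a smooth muscle actin-binding protein gene, had 270 counts in shCTR and 100 in shcircCsnk1g3, with -1.31 (-1.67 to -0.99), and the adhesion gene Alcam had 987 and 467, with -0.97 (-1.13 to -0.81). Ly6a, which encodes the stem cell sorting marker Sca-1, was the other gene at least 1.5-fold lower, at 76.3 CPM in shCTR and 47.3 in shcircCsnk1g3. On the higher side were the matrix genes Tnc at 0.44 (0.38 to 0.50) and Col3a1 at 0.37 (0.35 to 0.39), and Postn, at 21 and 59 counts, was the only gene at least 1.5-fold higher. Ly6a and Postn were singled out after their values were seen.

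The epithelial genes that Snail, Zeb and Twist proteins repress, or that oppose them, were for the most part close to undetectable. Of 36 genes, 11 had 0 counts in both libraries, 19 were at or under 3 counts in both, and 12 passed the filter. The floor of 3 counts corresponds to 0.0765 CPM in shcircCsnk1g3 and 0.0710 CPM in shCTR. Cdh1 had 6 counts in shCTR and 1 in shcircCsnk1g3, beside 5268 and 5060 for Cdh2, and Epcam, an epithelial adhesion gene, and Esrp1, an epithelial splicing regulator, had 0 in both. Of the 12 tested, 8 were higher and 4 lower, beside 50.4% of all genes tested that were higher. Intervals lay above 0 for 4 (33.3%, beside 26.9%) and below 0 for 2 (16.7%, beside 28.2%). The median log2 fold change was 0.19. It was 0.30 with the gene set and depths of the deposited TMM-scaled table and -0.14 without the count filter. Cldn1, which encodes the tight junction protein claudin-1, had 580 counts in shCTR and 1133 in shcircCsnk1g3, a log2 fold change of 1.07 (0.93 to 1.22). Muc1 gave 0.43 (0.13 to 0.74), Cxadr -0.30 (-0.48 to -0.13) and Pkp3 -0.27 (-0.52 to -0.02). Krt8, a keratin of simple epithelia, had 46 and 92 counts and Elf3 11 and 20, the other genes past 1.5-fold, both named after their values were seen. In all 3 of the 12 were at least 1.5-fold higher, beside 5.39% of all genes tested. The interval of Elf3 (-0.16 to 2.18) included 0 and that of Krt8 (0.58 to 1.65) did not.

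Of this list, only Epcam, Krt8, Krt18, Cdh1 and Cldn1 were looked up, and no window was found for Cdh1. The window of Cldn1 held no motif and that of Krt18 held 1, while 20.2% of all windows held it. These few genes were picked by hand and do not stand for the list. The windows of Epcam and Krt8, chosen because they hold the motif, are shown beside that of Snai1, with CACCTG or CAGGTG in capitals. Epcam (GRCm38.p6, chr17:87635729-87636028, plus strand) held it 2 times, starting 187 and 19 bases before the transcription start. Krt8 (chr15:102004293-102004592, minus strand) held it 1 time, starting 111 bases before. A window that holds these letters is not thereby a bound site, and binding was not measured.

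Epcam: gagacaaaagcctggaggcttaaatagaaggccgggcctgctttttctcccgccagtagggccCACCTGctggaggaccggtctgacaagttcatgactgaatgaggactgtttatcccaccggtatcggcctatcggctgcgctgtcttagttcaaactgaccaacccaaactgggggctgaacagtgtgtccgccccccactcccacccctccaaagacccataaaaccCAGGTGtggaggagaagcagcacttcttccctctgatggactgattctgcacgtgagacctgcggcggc

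Krt8: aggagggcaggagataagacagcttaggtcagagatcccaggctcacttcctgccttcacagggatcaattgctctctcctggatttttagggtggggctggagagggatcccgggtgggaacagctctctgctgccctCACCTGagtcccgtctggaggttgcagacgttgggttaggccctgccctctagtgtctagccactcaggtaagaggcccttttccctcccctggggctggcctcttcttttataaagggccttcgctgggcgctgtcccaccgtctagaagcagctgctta

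**Figure D5:**
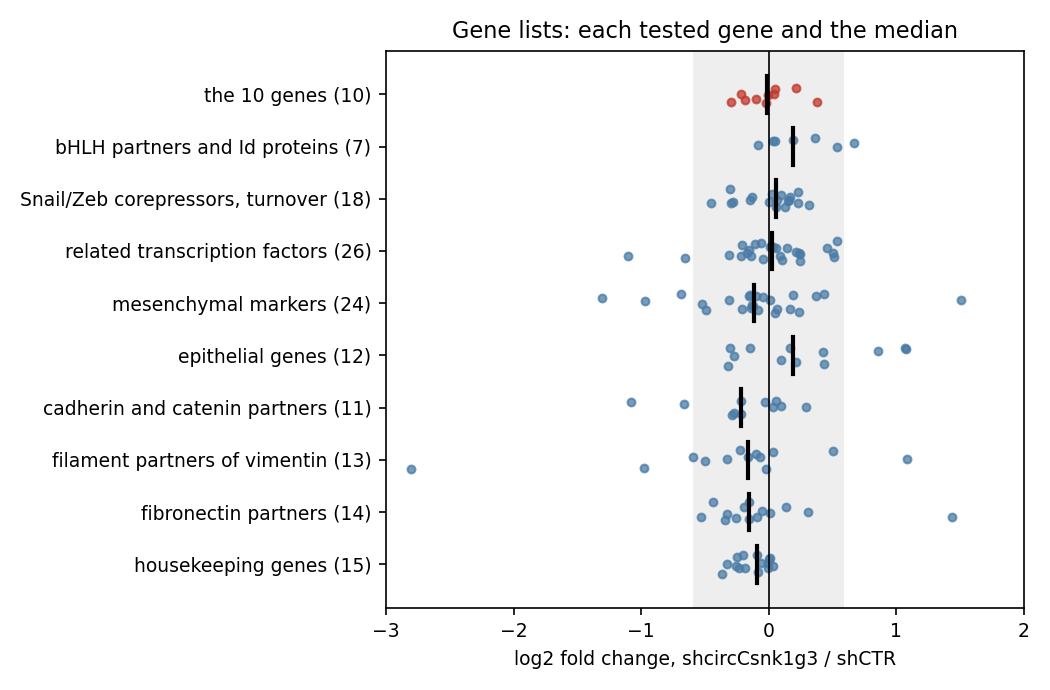
Log2 fold change of each tested gene (points) in the 10 genes (red) and in the other gene lists (blue), with the number tested in parentheses, the median as a black bar and the range within 1.5-fold shaded. The 10 genes stay inside the shaded range around a median of -0.01, and several of the other lists hold wider values, such as Afdn at -1.08, Itga8 at 1.44 and Cldn1 at 1.07.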

How the data were processed

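RNA was poly(A) selected and libraries were made with a stranded kit. Per the study's methods, reads were converted with bcl2fastq 2.20, aligned to GRCm38 with STAR 2.6.1 and quantified per gene with RSEM 1.2.28, and edgeR 3.30 was used for the authors' own comparison. The GENCODE release is not given in the sources used here. The authors deposited estimated counts per gene as whole numbers, without normalization. RSEM divides reads that fit several genes between them. A second deposited table holds TMM-scaled CPM for 11624 genes and was used only as an alternative. In that alternative its gene set and the depths that its values imply were applied to the counts. The 92 spike-in rows were left out.

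Factors were computed by TMM in edgeR 4.0.16 (R 4.3.3), and other steps used python 3.11.15, scipy 1.17.1, numpy 2.4.6, matplotlib 3.10.9 and pandas 2.3.3. Log2 fold changes are of TMM-scaled CPM after adding a prior count of 2. Intervals are 95% Clopper-Pearson intervals of the ratio of counts, or conditional intervals for a ratio of ratios, and cover counting error only. Across all genes no p-value was computed, since there was 1 library per condition. The steps were tested on simulated counts. Lengths and positions are from GENCODE M21 (GRCm38), in which 25251 of 25509 gene identifiers were found, and promoters from RefSeq (GRCm38.p6). Members and the 12 other gene lists were chosen with earlier results of these data known. Outside the members, genes were named by rule: the 2 highest and 2 lowest changes in each list among genes with at least 200 summed counts, and a few defining markers given as levels. Some further genes were named outside this rule, such as those marked in the text as added after their values were seen. List symbols were matched to the table by symbol, 3 of them by identifier because the table uses an older symbol. Alternatives were DESeq2 1.42.0 size factors, total counts, the deposited TMM-scaled table, prior counts of 0.5 and 10, other count filters, a threshold of 2-fold and the longest transcript as length.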

Additional observations from a re-analysis of the deposited data

How the results depend on the processing

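Leaving out a replicate was not possible with 1 library per condition. No paired analysis was possible because replicates are lacking. The smallest counts among the 10 genes, those of Snai1, gave an interval half-width of 0.12 on the log2 scale, which limits what could be seen there. The log2 fold changes of the 10 genes stayed within their own intervals in 48 of 50 values under DESeq2 size factors, total counts, the deposited TMM-scaled table and prior counts of 0.5 and 10. With total counts, which by construction leaves out the TMM factors and moved the median of all genes by 0.03, Vim moved to -0.19 and Fn1 to -0.27. Under that setting Twist1 gave 0.01 and Twist2 0.03, the median of the 10 genes was 0.02, and 4 genes in place of 2 had an interval above 0, with Zeb1 and Cdh2 added, while the share over all genes rose from 26.9% to 31.8%. No member passed 1.5-fold in either direction under the alternatives run for that count. Of 175 values of the other genes named by rule 171 stayed within their intervals, and the 4 that moved did so with total counts (Col3a1, Msn, Ywhaz and Actb). Genes named outside that rule were not included. Medians of the lists with at least 5 tested genes kept their sign under the alternatives run, except that of the 10 genes noted above and that of the epithelial genes, which was -0.14 without the count filter, by construction with genes of a few counts added. With the longest transcript as length, levels in shCTR were 5506 TPM for Vim, 285 for Fn1, 115 for Prrx1, 73.5 for Twist2, 68.3 for Twist1, 62.1 for Cdh2, 49.4 for Snai2, 46.4 for Snai1, 44.4 for Zeb1 and 15.6 for Zeb2.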

Other observations

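Related transcription factors of mesenchyme, a list beside the 10 genes, differed in both directions. Of 33 genes, 5 had 0 counts in both libraries (Tcf21, Ebf2, Meox1, Sox11 and Foxd1), and 26 passed the filter, of which 15 were higher and 11 lower in shcircCsnk1g3, with a median log2 fold change of 0.03. Klf4, a zinc finger factor of stem and epithelial cells, had 9386 counts in shCTR and 12663 in shcircCsnk1g3, a log2 fold change of 0.54 (0.50 to 0.58), and Zfpm2, a cofactor of GATA proteins, had 2118 and 2799 counts and 0.51 (0.43 to 0.59). Foxc2, a forkhead factor, was lower at -0.65 (-0.93 to -0.39), with 318 and 187 counts. The other gene at least 1.5-fold lower was Ebf1, named after its values were seen, with 44 and 18 counts. No gene of this list was at least 1.5-fold higher and 2 were at least 1.5-fold lower, beside 5.39% and 6.31% of all genes tested. Intervals lay above 0 for 8 (30.8%, beside 26.9%) and below 0 for 5 (19.2%, beside 28.2%). The Snail family member Snai3 had 2 counts in shCTR and 1 in shcircCsnk1g3, at or under the floor of 3 counts in both.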
